A study of Mus musculus with 6 samples.

Results

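The STAT proteins examined here are encoded by 6 genes, Stat2, Stat3, Stat4, Stat5a, Stat5b and Stat6, picked by gene name from the 23398 genes of the deposited expression table. Each of the 6 names occurred once in that table. Expression was measured by RNA sequencing in mouse dendritic cells derived from marrow, the antigen-presenting cells that prime T cells. One group was exposed for 12 hours to Ca(OH)2 nanoparticles (3 libraries) and the other to vehicle (3 libraries). The labels name no genotype, strain, age, particle dose or vehicle, both groups were kept in the same serum-containing medium, and no differentiation factor is named. Nothing in the labels says whether replicates came from separate animals or cultures, so the p-values below measure the spread between these libraries only, which may be technical.

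Values are FPKM (fragments per kilobase of transcript, scaled for library size), a unit inferred from the numbers. Because FPKM is per length, levels of different genes can be set side by side, but their order depends on the length taken for each gene. All annotated exons together span 9527 bases for Stat3 and 5926 for Stat2. In vehicle library 1 Stat3 had 1986 recovered reads and Stat2 1365, yet Stat2 was the higher in FPKM (11.6 against 10.5). The libraries corresponded to 17285762 to 21980062 recovered reads. Nanoparticle library 1 stood apart: across 10682 genes its correlation with the other nanoparticle libraries was 0.928 and 0.942, against 0.9895 between those 2 and 0.993 to 0.994 among vehicle libraries. Results are therefore given with and without it. Markers of dendritic cells and of macrophages were both present, with 8 of 10 and 8 of 8 genes past the expression filter (at least 1 FPKM in at least 3 libraries). Cd74 and H2-Ab1, which serve antigen presentation, were abundant in every library, whereas the dendritic cell marker Flt3 was at most 0.0793 FPKM. In the test described below, 1 of the 8 dendritic cell markers past the filter was higher with nanoparticles and 3 were lower. One of those lower, Cd209a, passed the filter through vehicle libraries alone. Of the 8 macrophage markers 3 were higher and 2 lower, against 17.0% higher and 16.2% lower over all tested genes. In bulk RNA, a change in the share of one cell type and a change in RNA per cell cannot be told apart. The summed level of 9 neutrophil markers ranged from 35.4 to 39.5 FPKM in vehicle and from 55.7 to 128 FPKM with nanoparticles, and most of it was S100a8. Only 3 of the 9 passed the expression filter, Csf3r through the nanoparticle libraries alone. S100a8 and Csf3r were higher in every nanoparticle library, whereas S100a9 was lowest in nanoparticle library 1, at 0.352 FPKM. The part of neutrophils in the results below was not tested.

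STAT proteins are latent transcription factors of the cytoplasm. A cytokine bound to its receptor activates Janus kinases (JAKs), which phosphorylate a tyrosine of the STAT, and the paired STATs then move to the nucleus and bind DNA. Stat2 serves the type I and type III interferons, in a complex with Irf9. Stat3 serves IL-6 family cytokines and IL-10, and Stat4 serves IL-12 and IL-23. Stat5a and Stat5b serve GM-CSF and the common gamma chain cytokines, and Stat6 serves IL-4 and IL-13. GM-CSF signalling through Stat5 is used to grow dendritic cells from marrow, and SOCS proteins limit the pathway as an induced brake. STAT activity itself is set by phosphorylation, which RNA levels do not report.

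Promoter letters are shown for the 2 members that held a motif of this pathway and, for contrast, for Stat6, the most abundant member in vehicle. RefSeq windows on GRCm38.p6, from 250 bases before to 50 bases after each annotated start, were found for all 6 members, with 2 windows each for Stat4, Stat5a and Stat5b. They were searched on both strands for the interferon-stimulated response element that the Stat2 complex binds (GAAA, 2 bases of any kind, GAAA, read on the other strand as TTTC, 2 bases, TTTC) and for the palindromic STAT site TTCNNNGAA. The matches below overlap no match of the other motif. The 250 bases before the start follow, 5′ to 3′ on the strand of the gene, with matches in capitals.
Stat2, plus strand, chr10:128270248-128270497: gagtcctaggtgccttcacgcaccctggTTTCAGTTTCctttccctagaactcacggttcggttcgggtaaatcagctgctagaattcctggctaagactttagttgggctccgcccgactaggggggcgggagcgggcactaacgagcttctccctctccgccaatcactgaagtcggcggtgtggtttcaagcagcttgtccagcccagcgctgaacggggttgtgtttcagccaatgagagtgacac
Stat4, plus strand, the downstream of its 2 starts, chr1:52007990-52008239: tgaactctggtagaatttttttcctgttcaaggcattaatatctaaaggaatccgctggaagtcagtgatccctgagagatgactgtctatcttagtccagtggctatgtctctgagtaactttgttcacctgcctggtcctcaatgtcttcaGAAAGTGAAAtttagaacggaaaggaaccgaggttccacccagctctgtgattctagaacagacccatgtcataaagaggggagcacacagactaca
Stat6, plus strand, chr10:127642736-127642985: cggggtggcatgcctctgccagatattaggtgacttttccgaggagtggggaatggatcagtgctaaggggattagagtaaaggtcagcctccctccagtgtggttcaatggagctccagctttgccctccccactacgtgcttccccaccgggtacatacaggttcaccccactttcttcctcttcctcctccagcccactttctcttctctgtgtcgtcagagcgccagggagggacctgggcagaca
The Stat2 match begins 222 bases and the Stat4 match 97 bases before the start. The response element occurred in 3.44% of 32851 promoter windows of this length, and the STAT site in 8.30%. The STAT site was in 0 of the 9 windows of the members, and the windows of Stat3, Stat5a, Stat5b and Stat6 and the upstream window of Stat4 also lacked the response element letters, which says only that these letters are not in these windows. A match describes letters and is not evidence of binding.

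The loci fall into 3 groups, given for GENCODE M21 on GRCm38, and each gene is protein coding. On chromosome 11, Stat5b (ENSMUSG00000020919, minus strand, 100780731 to 100850724), Stat5a (ENSMUSG00000004043, plus strand, 100859351 to 100885169) and Stat3 (ENSMUSG00000004040, minus strand, 100885098 to 100939540) lie in a row with 0 other protein-coding genes between them. Stat5b and Stat5a start 8626 bases apart in opposite directions. The ends of Stat5a and Stat3 overlap by 72 bases on opposite strands, so reads from that stretch cannot be told apart where counting ignores strand. On chromosome 10, Stat6 (ENSMUSG00000002147, plus strand, 127642986 to 127660957) and Stat2 (ENSMUSG00000040033, plus strand, 128270559 to 128292849) are separated by 24 protein-coding genes. Stat6 overlaps the end of Nab2 on the other strand. Stat4 (ENSMUSG00000062939, plus strand) spans 51987148 to 52107189 of chromosome 1 and overlaps the pseudogene Gm3940 and the processed transcript Gm28177.

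In vehicle-treated cells the members held one order in all 3 libraries. Stat6 was the highest at 43.3 ± 0.612 FPKM, followed by Stat2 at 11.4 ± 0.207, Stat3 at 10.4 ± 0.177, Stat5b at 8.52 ± 0.577, Stat5a at 5.25 ± 0.619 and Stat4 at 0.0857 ± 0.0499 FPKM (SD, n = 3 each). The range of each member was separate from that of its neighbour in this order. Stat6 alone made up 54.8% ± 0.863 of the summed FPKM of the 6 genes (SD, n = 3).

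Stat2, Stat4, Stat5a and Stat5b rose with nanoparticles, while Stat3 and Stat6 did not pass the test. The test was limma's moderated test on log2(FPKM + 1) with Benjamini-Hochberg adjustment over all 10682 tested genes, at a threshold of 0.05. In the same comparison 33.2% of all tested genes passed, 17.0% as higher and 16.2% as lower. Each nanoparticle library was above each vehicle library for 5 of the 6 members, all except Stat6. This held for 25.9% of tested genes, and for 52.1% the groups did not overlap in one direction or the other. Stat4 passed the expression filter through the nanoparticle libraries alone and so had to differ, which leaves 5 members that could have gone either way. Without nanoparticle library 1, 5 members passed as higher, Stat3 in addition, where 64.8% of all genes passed and 34.3% as higher. With any 1 vehicle library or nanoparticle library 2 left out, or with either of the other scalings of libraries named below, 3 members passed: Stat2, Stat4 and Stat5a. Of all 10682 tested genes, 2141 to 2226 passed without any 1 vehicle library and 2806 without nanoparticle library 2. Scaling to equal sums of FPKM gave 5187 genes past the threshold and scaling to total recovered reads 4723.

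**Figure D1:**
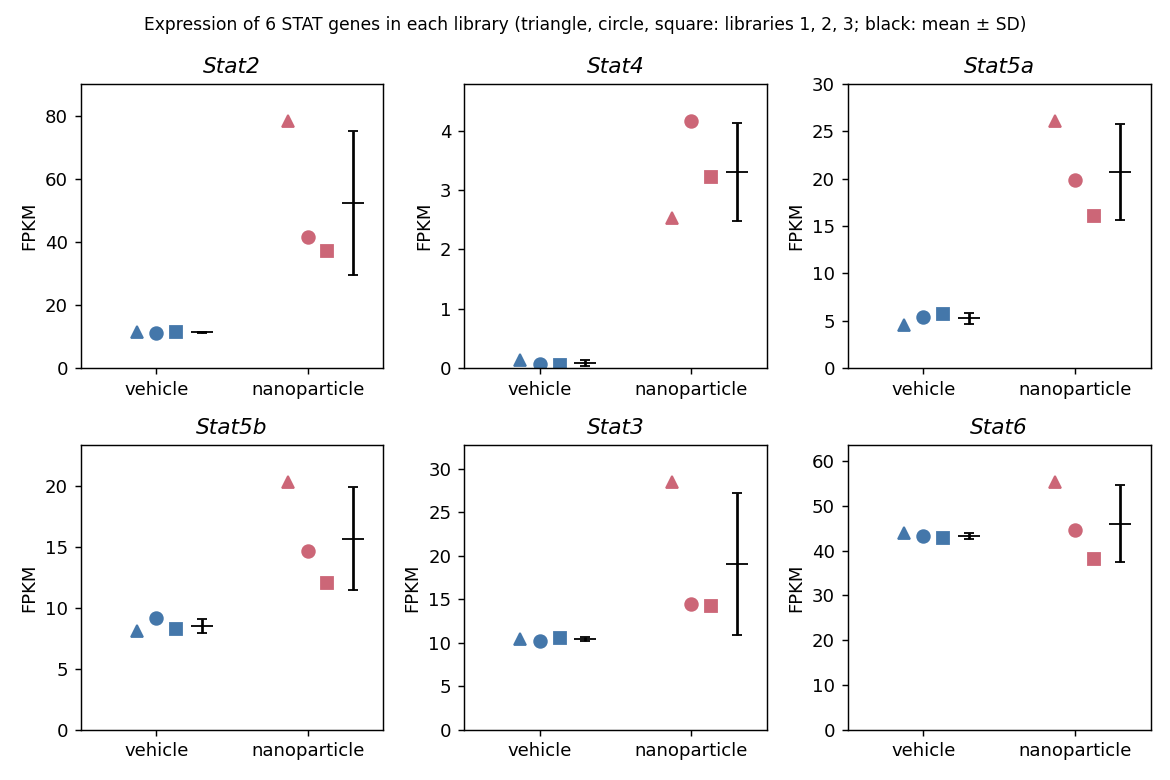
FPKM of each member (y axis, linear, from 0) in the vehicle and nanoparticle groups, with triangles, circles and squares for libraries 1, 2 and 3 of each group and black bars for the mean ± SD (n = 3). Vehicle libraries lie close together, nanoparticle library 1 is the highest for all members except Stat4, and the groups overlap only for Stat6.

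Stat2, which carries the interferon signal together with Irf9, was at 11.6, 11.2 and 11.5 FPKM in vehicle libraries 1 to 3 and at 78.5, 41.6 and 37.1 FPKM in nanoparticle libraries 1 to 3. All treated libraries were far above the untreated ones, and library 1 was almost double the others. The ratio of group means was 4.59, and the log2 change was 2.02 (SE 0.276, 95% interval 1.36 to 2.69, limma adjusted p = 0.00246). Leaving out nanoparticle library 1 gave a log2 change of 1.70 (limma adjusted p = 4.8e-06), and over all alternatives the adjusted p ran from 4.8e-06 to 0.0158. These values rest on 1313 to 1423 recovered reads per vehicle library and 4081 to 7591 per nanoparticle library. Irf9, the DNA-binding partner of Stat2, went from 6.34 ± 0.0440 to 20.6 ± 1.87 FPKM (SD, n = 3 each), a rise of 1.55 on the log2 scale (limma adjusted p = 1.8e-04). Irf9 was at 22.3, 20.9 and 18.6 FPKM in nanoparticle libraries 1 to 3, so the excess of library 1 seen for Stat2 was smaller for its partner.

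Stat4, the IL-12 and IL-23 factor best known from T and NK cells, was barely detected without treatment. It had 0.143, 0.0651 and 0.0495 FPKM in the vehicle libraries, from 11, 5 and 4 recovered reads. The nanoparticle libraries held 2.53, 4.17 and 3.22 FPKM, from 160, 267 and 240 reads. The groups were wide apart, and Stat4 was the one member for which nanoparticle library 1 was the lowest of its group. The ratio of group means was 38.5. On the log2(FPKM + 1) scale, which compresses low values, the change was 1.97 (SE 0.156, 95% interval 1.59 to 2.35, limma adjusted p = 3.4e-04). With limma-voom on the recovered reads, an alternative chosen after seeing the data, it was 5.28, and the adjusted p over all alternatives ran from 2.2e-05 to 0.0040. Stat4 passed the expression filter through the nanoparticle libraries alone, so its direction was set by the filter wherever the filter was used. Despite the rise Stat4 was still the lowest member in each treated library. The 6 T and NK cell markers with a value summed to 0.0959 to 0.166 FPKM in vehicle and 0.0382 to 0.0999 FPKM with nanoparticles. Cd3g, Klrb1c and Nkg7 were listed at 0 in all nanoparticle libraries and Ncr1 in all vehicle libraries. Each of these markers had at most 4 recovered reads in any library, so these zeros show no direction.

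Stat5a and Stat5b, the closely related factors of GM-CSF and common gamma chain cytokines, differed in their level and in the size of their change. Stat5a was at 4.56, 5.45 and 5.75 FPKM in the vehicle libraries and at 26.1, 19.9 and 16.1 FPKM in the nanoparticle libraries. All treated values were above all untreated ones, with a ratio of means of 3.94. The log2 change of Stat5a was 1.77 (SE 0.186, 95% interval 1.32 to 2.22, limma adjusted p = 9.2e-04), and it was 1.60 without nanoparticle library 1. Stat5b was at 8.10, 9.18 and 8.28 FPKM in vehicle and at 20.3, 14.7 and 12.05 FPKM with nanoparticles. The groups did not overlap, the ratio of means was 1.84, and the log2 change was 0.78 (SE 0.188, 95% interval 0.33 to 1.24, limma adjusted p = 0.0211). This call was less firm than that of Stat5a. It was lost when libraries were scaled to equal sums of FPKM (log2 change 0.35) or to total recovered reads (0.46), and when any vehicle library or nanoparticle library 2 was left out, with an adjusted p of 0.0022 to 0.269 over all alternatives.

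The ratio of Stat5a to Stat5b FPKM within a library does not depend on the scaling between libraries. It was 0.563, 0.594 and 0.694 in vehicle libraries 1 to 3 and 1.28, 1.36 and 1.34 in nanoparticle libraries 1 to 3. Stat5b was thus the higher of the pair in every vehicle library and Stat5a in every nanoparticle library, and nanoparticle library 1 did not stand apart. The mean log2 ratio differed by 1.11 between groups (exact permutation test, two-sided, p = 0.1), and 0.1 is the smallest p that 3 against 3 libraries allow. Of all 50-base windows of the annotated Stat5a transcripts, 8.21% also occur in Stat5b transcripts, and 10.98% of those of Stat5b occur in Stat5a. Reads from these stretches could have been assigned to either gene, and how the authors treated them is not given in the sources used here. Between any other pair of the 6 genes, 0% of such windows were shared.

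Stat3, the factor of IL-6 and IL-10, was at 10.5, 10.2 and 10.6 FPKM in vehicle and at 28.5, 14.5 and 14.2 FPKM with nanoparticles. The groups did not overlap, but nanoparticle library 1 was at 1.98 times the mean of the other 2. The ratio of means was 1.83, the log2 change was 0.74 (SE 0.263, 95% interval 0.10 to 1.38), and it did not pass after adjustment (limma adjusted p = 0.0755, unadjusted p = 0.0291). Without nanoparticle library 1 the estimate was smaller, at 0.43, but the spread was far smaller too (SE 0.0566) and it passed (limma adjusted p = 8.0e-04). The adjusted p over all alternatives ran from 8.0e-04 to 0.456. Nanoparticle libraries 2 and 3 were 1.39 and 1.36 times the vehicle mean.

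Stat6, the IL-4 and IL-13 factor, was at 44.0, 43.2 and 42.8 FPKM in vehicle and at 55.3, 44.5 and 38.2 FPKM with nanoparticles. The treated libraries lay on both sides of the untreated ones, 2 above and 1 below all of them. The ratio of means was 1.06, and the log2 change of 0.07 (SE 0.150) did not pass (limma adjusted p = 0.757). Its 95% interval, -0.29 to 0.43, allows a modest change either way. The sign depends on the setting: the estimate was -0.07 without nanoparticle library 1, -0.39 with equal sums of FPKM and -0.27 with total recovered reads.

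**Figure D2:**
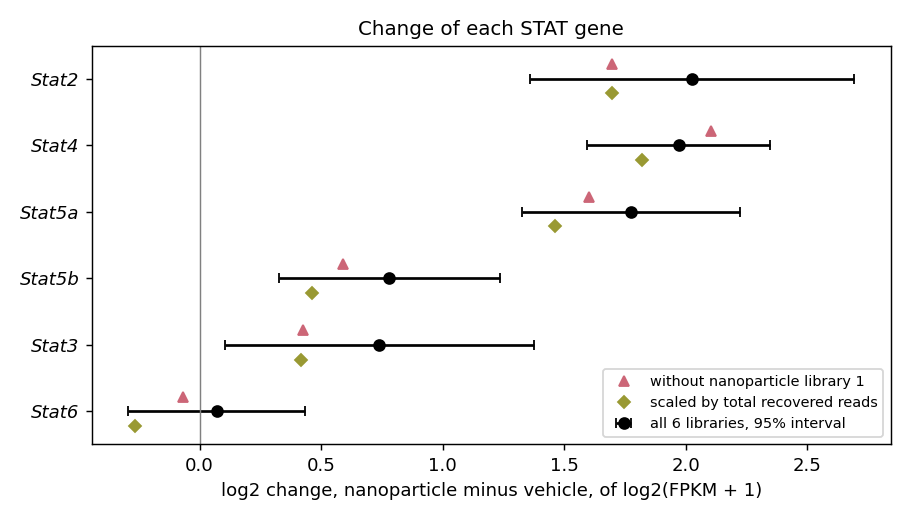
Log2 change of each member (x axis, nanoparticle minus vehicle, of log2(FPKM + 1)), with black points and bars for limma estimates and 95% intervals over all 6 libraries, triangles for estimates without nanoparticle library 1 and diamonds for libraries scaled by total recovered reads. Stat2, Stat4 and Stat5a lie between 1.77 and 2.02, Stat5b and Stat3 at 0.78 and 0.74, and the interval of Stat6 spans 0.

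The make-up of STAT transcripts shifted from Stat6 towards Stat2, Stat5a and Stat4. Stat6 accounted for 54.8% ± 0.863 of the summed FPKM in vehicle and 29.9% ± 3.24 with nanoparticles (SD, n = 3 each). The share of Stat2 was 14.4% ± 0.309 and 32.6% ± 3.998, and that of Stat5a 6.65% ± 0.774 and 13.3% ± 0.958. Stat4 held 0.109% ± 0.0634 and 2.28% ± 0.954. The groups did not overlap for these 4 shares, which do not depend on the scaling between libraries. The share of Stat5b was 10.8% ± 0.694 and 10.04% ± 0.461, and that of Stat3 was 13.2% ± 0.262 and 11.9% ± 1.55, with ranges that overlapped between groups for both genes. The summed level of the 6 genes was 78.8 to 79.3 FPKM in the vehicle libraries and 211, 139 and 121 FPKM in nanoparticle libraries 1 to 3. The order of levels changed accordingly. Stat2 was above Stat6 in nanoparticle library 1 and just below it in libraries 2 and 3, and the ranges of the 2 genes overlapped. The ranges of Stat5a, Stat3 and Stat5b overlapped as well. Stat5a was above Stat5b in each nanoparticle library, while the place of Stat3 relative to both changed from library to library.

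**Figure D3:**
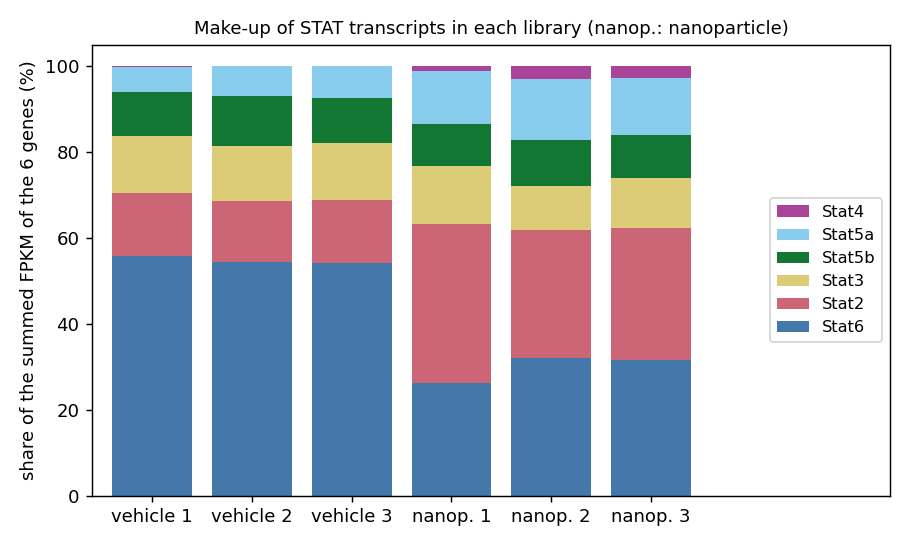
Share of each member in the summed FPKM of the 6 genes (y axis, percent) in each of the 6 libraries, stacked from Stat6 at the bottom to Stat4 at the top. The Stat6 share is 54.2% to 55.8% in vehicle and 26.2% to 32.0% in nanoparticle libraries, and the Stat2 share is 14.1% to 14.7% and 29.9% to 37.2%.

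The excess of nanoparticle library 1 was not shared evenly by the members. Relative to the mean of nanoparticle libraries 2 and 3, library 1 was at 1.99 for Stat2, 1.98 for Stat3, 1.52 for Stat5b, 1.45 for Stat5a, 1.34 for Stat6 and 0.686 for Stat4. Among all tested genes, library 1 was the highest of its group in 42.3% and the lowest in 46.3%. It was thus at one end of its group in 88.6% of genes, against 41.4% for library 2 and 69.8% for library 3.

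Genes that act with the STATs were described in 5 lists of receptors, ligands, kinases, partners and negative regulators. Of 91 genes 85 had a value and 66 were tested, of which 32 rose and 8 fell. With 33.2% of all tested genes past the threshold, the share here was 60.6%, but 10 of the 66 passed the filter in nanoparticle libraries alone and could hardly fail to rise, and Lepr passed in vehicle libraries alone. Counts in the lists below compare with 17.0% higher and 16.2% lower over all tested genes.

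Of the 4 JAK kinases only Jak2 passed. Its mean level was 36.3 ± 3.46 FPKM in the untreated and 77.7 ± 20.3 FPKM in the treated libraries (SD, n = 3 each), and its log2 change was 1.05 (limma adjusted p = 0.0081). It serves the receptors of GM-CSF, IL-12 and interferon gamma. Its call was lost with equal sums of FPKM (log2 change 0.59, limma adjusted p = 0.0946, the highest of all alternatives, the lowest being 2.8e-04). Jak1 (33.04 ± 1.10 and 39.1 ± 13.4 FPKM), Tyk2 (13.1 ± 1.17 and 14.6 ± 2.93 FPKM) and Jak3 (2.29 ± 0.166 and 3.41 ± 0.690 FPKM, SD, n = 3 each) did not pass. Jak1 and Tyk2 were spread across the vehicle range, while every treated value of Jak3 was above every untreated one and its adjusted p fell from 0.0596 to 0.0294 without nanoparticle library 1 (limma). The share of 1 in 4 compares with 33.2% over all tested genes. Leaving out nanoparticle library 1 gave 2 JAK genes past the threshold, where 64.8% of all genes passed, and leaving out library 2 also gave 2, where 2806 of 10682 genes passed. Over the 4 genes the median log2 change was 0.30, against -0.0010 for all tested genes.

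Among the 6 genes listed as partners, Nmi, a protein that binds STATs, Irf9 and the STAT-induced kinase Pim1 rose, and the median log2 change was 0.74. Nmi went from 6.09 ± 0.617 to 24.0 ± 2.03 FPKM and Pim1 from 81.6 ± 1.40 to 193.5 ± 14.9 FPKM (SD, n = 3 each, limma adjusted p = 1.6e-04 and 5.7e-04). The coactivators Ep300 and Ncoa1 did not pass, at log2 changes of -0.48 and -0.51. Without nanoparticle library 1 both were past the threshold as lower, at -0.80 and -0.74.

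Of 25 tested cytokine receptor genes, 10 rose and 4 fell, with a median log2 change of 0.41. Of these, 2 that rose (Csf3r and Il15ra) and 1 that fell (Lepr) passed the expression filter only through the group in which they are high, so their direction was set by the filter. Both chains of the type I interferon receptor, upstream of Stat2, were among those that rose: Ifnar1 from 15.1 ± 0.630 to 25.3 ± 0.583 FPKM and Ifnar2 from 12.9 ± 0.812 to 33.7 ± 7.64 FPKM (SD, n = 3 each). Ifnar1 and Ifnar2 were chosen after their values were seen, as were the other receptor chains below that complete a pair and those upstream of Stat4. The common gamma chain Il2rg, upstream of Stat5, rose from 42.3 ± 1.24 to 84.6 ± 2.60 FPKM (limma adjusted p = 7.3e-04). The chains of the interferon gamma receptor went opposite ways: Ifngr2 rose from 23.8 ± 0.768 to 43.8 ± 1.78 FPKM, and Ifngr1 fell from 23.2 ± 1.11 to 12.8 ± 1.84 FPKM (SD, n = 3 each, limma adjusted p = 0.0011 and 0.0039). The G-CSF receptor Csf3r, also a neutrophil marker, was at 0.586 ± 0.0957 and 4.21 ± 0.603 FPKM, and the leptin receptor Lepr at 1.79 ± 0.0937 and 0.321 ± 0.0780 FPKM (vehicle first, SD, n = 3 each). The shared GM-CSF receptor chain Csf2rb (373 ± 15.1 and 378 ± 98.5 FPKM) and Csf2rb2, which does not serve GM-CSF (201 ± 3.37 and 261 ± 109 FPKM), did not pass. These 2 genes had the highest means over all 6 libraries among the listed receptor genes. For Csf2rb2 that mean was carried by nanoparticle library 1 (387 FPKM): Csf2ra, which did not pass either, was above it in the other 5 libraries. Receptors upstream of Stat3 went both ways. The IL-6 receptor chains Il6ra and Il6st fell by 0.82 and 0.83 on the log2 scale (limma adjusted p = 0.0032 and 0.0055), and the IL-10 receptor chains Il10ra and Il10rb rose by 0.72 and 0.76 (limma adjusted p = 0.0022 and 0.0017). Upstream of Stat4, Il12rb1 (at most 0.771 FPKM) and Il23r were below the expression filter. Il23r was at most 0.0202 FPKM in vehicle and at 2.51, 1.55 and 0.813 FPKM in nanoparticle libraries 1 to 3. Il12rb2 did not pass, at 2.62 ± 0.457 FPKM in vehicle (SD, n = 3) and at 7.04, 1.99 and 0.492 FPKM in nanoparticle libraries 1 to 3.

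All 12 tested cytokine ligands rose, but 8 of them passed the filter in nanoparticle libraries alone, and 9 more with a value were below the filter. The median log2 change was 2.46, and 5.68 for ratios of mean FPKM with the 6 genes at or under 3 reads in each vehicle library set to that floor, against 0.033 for all tested genes. Il6, the main Stat3 ligand of the list, was at 0, 0 and 0.0592 FPKM in vehicle and at 383, 290.02 and 264 FPKM with nanoparticles. The shared IL-12 and IL-23 chain Il12b, upstream of Stat4, went from 0.456 ± 0.176 to 222 ± 71.0 FPKM, and Il27 from 0.696 ± 0.177 to 33.1 ± 3.72 FPKM (SD, n = 3 each). The G-CSF gene Csf3 was at most 0.0714 FPKM in vehicle and at 47.5, 36.3 and 26.1 FPKM with nanoparticles. Il6, Il12b, Il27 and Csf3 are all among the 8, so their direction was set by the filter. Osm, Clcf1, Ebi3 and Il15 passed the filter in both groups and rose by 2.10, 0.80, 1.64 and 2.51 on the log2 scale.

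Negative regulators went both ways, with 6 higher and 4 lower of 19 tested and a median log2 change of -0.11. Socs1 rose from 17.02 ± 0.479 to 87.5 ± 20.03 FPKM and Socs3 from 39.2 ± 1.79 to 206 ± 54.7 FPKM (SD, n = 3 each, limma adjusted p = 3.8e-04 and 4.1e-04). These are the brakes on interferon and on IL-6 family signalling. Usp18, which restrains the type I interferon receptor through Stat2, rose from 5.64 ± 0.862 to 177 ± 50.3 FPKM. Socs6 fell from 13.8 ± 1.01 to 4.25 ± 1.10 FPKM (log2 change -1.52, limma adjusted p = 0.0013). The phosphatases Ptpn6 and Ptpn1 did not pass (log2 change -0.18 and 0.21). The number of lower regulators ranged from 2 without any one vehicle library to 10 without nanoparticle library 1. It was 9 and 10 under the scalings to total reads and to equal sums, where 3 regulators were higher under the latter. Of all 10682 tested genes, 1027 to 1074 were lower without any one vehicle library and 3263 without nanoparticle library 1. Under the scalings to total reads and to equal sums 3615 and 4306 were lower, and 881 were higher under the latter.

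**Figure D4:**
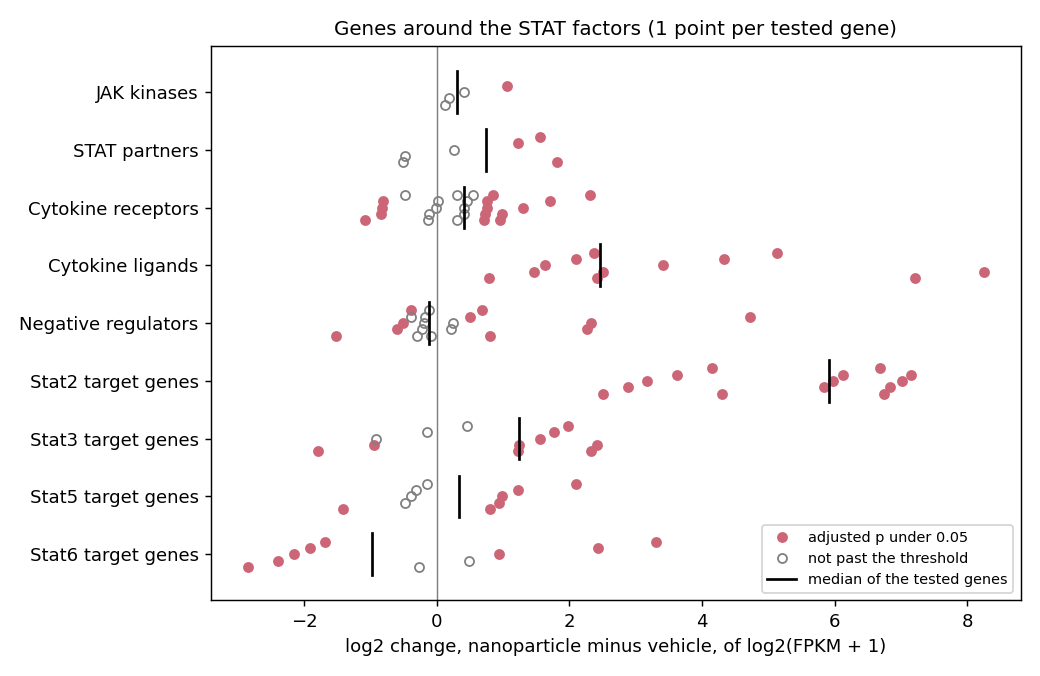
Log2 change (x axis, nanoparticle minus vehicle, of log2(FPKM + 1)) of each tested gene in 9 lists, filled points past an adjusted p of 0.05 and open points not, with a black line at the median of each list. All tested ligands and Stat2 targets lie above 0, while negative regulators and Stat6 targets lie on both sides.

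Genes known as STAT targets were described in 4 lists, of which those of Stat3 and Stat5 share Pim1 and Bcl6. No difference between lists was tested, and their counts compare with 17.0% higher and 16.2% lower over all tested genes. All 14 Stat2 targets, the antiviral interferon-stimulated genes, rose, with a median log2 change of 5.91, and 4 of them passed the filter in nanoparticle libraries alone. Isg15 went from 7.25 ± 0.536 to 1182 ± 215 FPKM, Oas1a from 20.1 ± 0.561 to 155 ± 15.5 FPKM, Ifit3 from 1.94 ± 0.405 to 348 ± 140 FPKM and Oasl1 from 0.406 ± 0.102 to 154 ± 72.5 FPKM (SD, n = 3 each). Oasl1 is among the 4 whose direction was set by the filter. The ratios of group means were 163 for Isg15 and 7.69 for Oas1a, against 4.59 for Stat2 itself.

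Of the 12 Stat3 targets 7 rose and 2 fell, with a median of 1.23. Those that fell were Fos and Myc, at log2 changes of -0.94 and -1.79 (limma adjusted p = 0.0019 and 0.0036). One that rose, Il10, was listed at 0 in every vehicle library and passed the filter through nanoparticle libraries alone. Bcl3 rose from 4.87 ± 0.299 to 19.0 ± 2.15 FPKM and Junb from 80.2 ± 2.74 to 238 ± 10.2 FPKM (SD, n = 3 each, limma adjusted p = 1.8e-04 and 2.3e-04), beside Socs3 and Pim1 above. Il4ra (log2 change 0.45) and Ccnd1 (-0.92) did not pass. Of the 10 Stat5 targets 5 rose and 1 fell, with a median of 0.33. Osm rose from 7.24 ± 0.104 to 35.9 ± 14.3 FPKM and Cish, a brake on Stat5, from 19.6 ± 0.324 to 35.3 ± 4.52 FPKM, whereas the survival gene Bcl2 fell from 4.59 ± 0.0417 to 1.16 ± 0.545 FPKM (SD, n = 3 each, limma adjusted p = 0.0016, 0.0032 and 0.0030). Cish did not pass with equal sums of FPKM (log2 change 0.35, limma adjusted p = 0.126). Bcl2l1 and Il2ra did not pass, at -0.31 and -0.48. The number of Stat5 targets that rose was 3 under both scalings and without any one vehicle library or nanoparticle library 2, and 3 fell without nanoparticle library 1. Of all 10682 tested genes, 881 to 1423 were higher in the former fits, against 1817 at the deposited scale with all 6 libraries. In the latter fit 3263 were lower, against 1733.

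Of the 10 tested Stat6 targets 3 rose and 5 fell, with a median of -0.97, while Stat6 itself did not pass. Of those that fell, Alox15 passed the filter through vehicle libraries alone and could hardly fail to fall. The lectin Clec10a fell from 6.92 ± 1.12 to 0.786 ± 0.267 FPKM and the mannose receptor Mrc1 from 56.3 ± 5.75 to 7.77 ± 4.08 FPKM (SD, n = 3 each, limma adjusted p = 3.0e-04 and 0.0027). The lipoxygenase Alox15 was at 5.91 ± 1.01 FPKM in vehicle and at 0, 0.862 and 0.211 FPKM in nanoparticle libraries 1 to 3. In contrast the chemokine Ccl22 rose from 154 ± 37.6 to 1535 ± 430 FPKM. Ccl17 did not pass and was at 1560, 4707 and 5503 FPKM in nanoparticle libraries 1 to 3, below the vehicle range of 2235 to 2579 FPKM in library 1 and above it in the others. Chil3 did not pass (log2 change -0.26). Several genes of these lists that did not pass over all 6 libraries did so without nanoparticle library 1, where 64.8% of all tested genes passed against 33.2% with it: Ccl17, Il4ra and Ptpn1 as higher (log2 change 1.06, 0.24 and 0.46) and Ccnd1, Il2ra and Csf2rb as lower (-0.53, -0.65 and -0.21).

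The genes whose profile over the 6 libraries was most like that of each member were found by the root mean square difference of centred log2(FPKM + 1) values among genes with a mean of at least 5 FPKM. For Stat2 they were Znfx1 (difference 0.0345) and Tapbpl (0.0434), against a range of 2.71 for Stat2 itself. For Stat3 they were Serpinb8 (0.0245) and the glucose transporter Slc2a1 (0.0557), both also highest in nanoparticle library 1. For Stat4 they were Il1f9 (0.0751) and the NF-kappaB subunit Relb (0.0931), both lowest in library 1 of the nanoparticle group. For Stat5a they were Ebi3 (0.0799), a chain of IL-27, and the complement component C3 (0.0879). For Stat5b they were Rab8b (0.0595) and Dcp2 (0.0597), and for Stat6 Eif5 (0.0398) and Scaf1 (0.0452). With 6 libraries in 2 groups, likeness mostly reflects the group difference and the position of nanoparticle library 1.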

How the data were processed

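The 2 deposited tables hold the same 140388 values, although one is named for read counts. No header names their unit, and from their behaviour the deposited values were taken to be FPKM. The submitters' processing notes name CASAVA, STAR 2.5, HTSeq, edgeR 3.16.5 and DESeq2, and the builds mm10 and hg19, without roles. Libraries were made from 1 µg of total RNA, per the labels. With GENCODE M21 exon lengths, 95.8% to 96.1% of values above 0 per library became whole reads (within 0.01), and 485 abundant genes did so with another length. These reads give the depth, and counting error covers sampling of reads only. Recovered reads per unit of scale were 0.875 to 0.892 in vehicle and 1.09 to 1.14 in nanoparticle libraries, so the deposited scale is not plain depth scaling.

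Genes had to reach 1 FPKM in 3 or more libraries. After adding 1, limma 3.58.1 in R 4.3.3 fitted log2 values with group as the single term, lmFit, eBayes and a mean-variance trend, which was tested on simulated data. Alternatives were a pseudocount of 0.1, no filter, no trend, scaling to equal sums of FPKM or to total recovered reads, a replicate block, leaving out each library, and limma-voom on recovered reads (added after the data were seen). Ratios were compared by an exact permutation test in scipy 1.17.1. The members and gene lists were chosen with earlier results of these data known. Genes named from each list are the up to 4 with the smallest adjusted p past the threshold and the up to 2 most abundant tested genes that did not pass. All 4 JAK genes, Irf9 and 2 genes with the most similar profile per member were named as well. Other genes named from the lists were chosen after their values were seen. Promoter letters are from RefSeq.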

Additional observations from a re-analysis of the deposited data

How the results depend on the processing

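Of the 6 members, Stat2, Stat4 and Stat5a stayed past the threshold as higher under all 13 alternatives, and Stat6 was past it under 0 of them. For Stat4 the direction was set by the expression filter in all of these except the fit without a filter. Stat5b was not past it with equal sums of FPKM (log2 change 0.35) or total recovered reads (0.46). In the 6 fits that each left out 1 library its log2 change ran from 0.59 to 0.94, and 4 of these fits lost the call. For Stat3 these fits gave 0.43 to 0.90, and the one without nanoparticle library 1 made the call. The number of all genes past the threshold ran from 2141 (without vehicle library 3) to 6923 (without nanoparticle library 1), against 3550. The cause was not tested. With equal sums and total reads the median over all genes was a log2 change of -0.38 and -0.28, so changes are relative to the deposited scale. With these scalings 881 and 1108 genes were higher and 4306 and 3615 lower, in place of 1817 and 1733. The labels do not say whether replicate numbers pair the samples. Correlations of deviations were 0.065, 0.113 and -0.058 for same-numbered libraries and -0.129 to 0.108 for differently numbered ones. With 3 libraries per group these values cannot decide whether samples were paired. With a replicate block, 4 members, 38 listed pathway genes and 2785 genes passed, against 4, 40 and 3550, and the log2 changes of the members were as before.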
